A study of Mus musculus with 2 samples.

Results

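The genes described here encode the secreted and membrane-bound metalloproteinases that cut the extracellular matrix, their relatives without a protease domain, and their inhibitors. They were taken by symbol as the protein-coding genes of GENCODE M21 named Mmp, Adamts, Adamtsl or Timp followed by a digit, without Adamts1. This gave 49 of 21755 protein-coding genes of the autosomes and the X chromosome: 22 Mmp, 18 Adamts, 5 Adamtsl and 4 Timp genes. Open chromatin had been mapped with DNase-seq, which sequences the ends that the nuclease DNase I leaves in accessible DNA. The sample was ovary tissue of adult female B6CASTF1/J mice aged 18 to 20 months. The strain, from The Jackson Laboratory, is the F1 cross of C57BL/6 with CAST. The series holds 1 group of 2 libraries, biological replicates 1 and 2, from separate biosamples under the same donor entry, so whether they came from different animals is not known. There was no younger or other group, and values describe these libraries only.

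Matrix metalloproteinases (MMPs) are zinc enzymes made as inactive precursors that together cleave collagens, gelatin, proteoglycans and other matrix proteins. ADAMTS enzymes add thrombospondin repeats that place them on the matrix, where different members trim proteoglycans, procollagens, fibrillin-rich fibres or von Willebrand factor. TIMPs bind the active site of these enzymes and block it. In the ovary this system is known for the remodelling of the follicle wall, the corpus luteum and the stroma.

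A peak's signal is the strength the authors deposited for it, read here as scaled for the depth of its library. The smallest step between values was 0.0108 for replicate 1 and 0.00782 for replicate 2, and the absolute depth is unknown. With 2 libraries, an SD covers only the spread between them, which may be technical. A gene was counted as open when both libraries held a peak within 500 bp of any of its annotated starts, and the highest of those peaks gave its promoter signal. In a mixed tissue, fewer cells with an open site and a site less open in each cell cannot be told apart. Defining genes of granulosa cells (4 of 5 open, with Foxl2 at 3.81 and 4.28) and of theca and stroma (5 of 5) were mostly open. Of all protein-coding genes, 62.3% were open, and these small marker counts were not tested. The open markers of these cells ran from Dcn (0.431 and 0.555, above 2.13% of open genes) to Star (4.50 and 7.15, above 63.6%). None of 4 oocyte markers was open, nor any of 6 macrophage markers, and 1 of 7 neutrophil markers (Camp) and 1 of 3 oviduct markers (Foxj1) were. Some markers had a peak in 1 replicate. In replicate 1 these were the macrophage markers Cd68 (0.937), Cd14 (0.786) and Lyz2 (0.334). In replicate 2 they were Fshr of granulosa cells (0.430) and the oviduct markers Ovgp1 (0.594) and Pax8 (0.758).

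Of the 49 genes, 29 were open in both replicates (59.2%), against 62.3% of all protein-coding genes, a share near the background. A further 3 had a peak in replicate 1 only, 2 in replicate 2 only, and 15 in neither. The families differed in their counts: all 4 Timp genes were open, 12 of 18 Adamts, 4 of 5 Adamtsl and 9 of 22 Mmp genes. Of the Mmp genes, 9 lie in a cluster on chromosome 9, of which 0 were open, and 9 of the other 13 were. In the shorter of the lists deposited for each library, 23 of the 49 were open (46.9%), against 58.0% of all genes.

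Open members had weak promoters. Their median promoter signal was 1.67 in replicate 1 and 1.85 in replicate 2, against 3.96 and 4.06 over all 13545 open genes. By mean rank over both replicates, 27 of the 29 lay below the median open gene. The 2 above the median were Adamts9 and Adamts17. The 2 values of each open member lay within 2-fold of each other, as did those of 98.1% of all open genes, with a median log2 ratio of replicate 2 to replicate 1 of 0.03, against 0.11 over all open genes. The strongest peak was the same in both replicates for 26 of the 29, and for Mmp24, Adamtsl4 and Timp3 the values come from different starts.

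**Figure D1:**
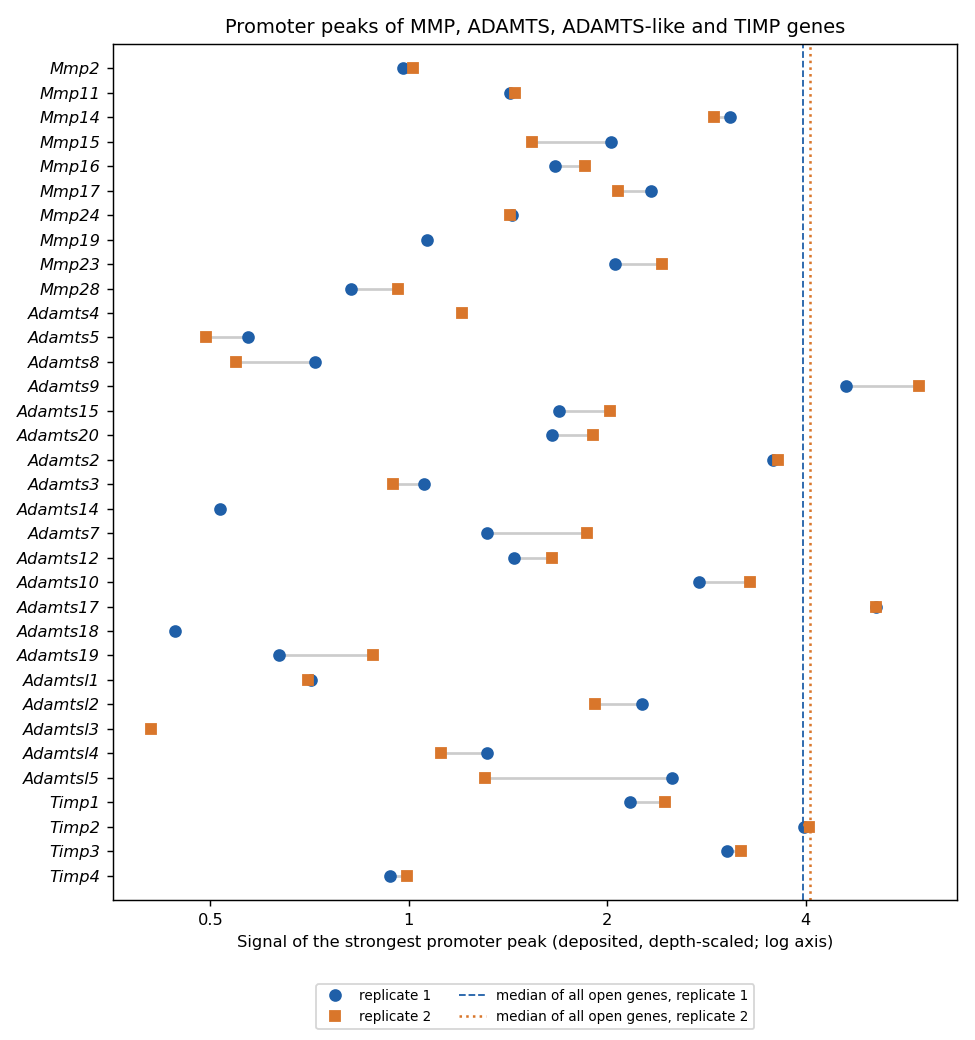
Signal of the strongest promoter peak (log axis) of the 34 members with a peak in at least 1 replicate, with replicate 1 as circles and replicate 2 as squares joined by a line, and the median of all open genes as vertical lines. Only Adamts9 and Adamts17 lie to the right of the median in both replicates, and Mmp19, Adamts4, Adamts14, Adamts18 and Adamtsl3 have 1 symbol each.

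The strongest promoters were those of a pair of ADAMTS proteases. Adamts9, a protease of versican and aggrecan (chromosome 6, 92772699 to 92943492, minus strand), had promoter signals of 4.60 and 5.94 in replicates 1 and 2 (mean 5.27 ± 0.950, SD, n = 2), above 60.9% of open genes. Adamts17, whose human counterpart is mutated in a Weill-Marchesani-like syndrome (chromosome 7, 66839735 to 67153171, plus strand), had 5.10 and 5.11 (5.11 ± 0.00642), above 60.4%. Both peaks lay at the annotated 5′ end. The sequences that follow are the parts of these peaks just upstream of the first exon, on the plus strand of GRCm38, with capitals for bases inside a footprint, a short stretch protected from cutting, in both replicates.
Adamts9 promoter, chr6:92943493-92943760: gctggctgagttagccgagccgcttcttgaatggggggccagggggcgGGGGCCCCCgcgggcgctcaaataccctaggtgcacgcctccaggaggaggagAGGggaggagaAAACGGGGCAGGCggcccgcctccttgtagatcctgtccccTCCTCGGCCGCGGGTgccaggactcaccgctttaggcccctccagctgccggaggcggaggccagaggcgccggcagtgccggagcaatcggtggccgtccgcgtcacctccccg
Adamts17 promoter, chr7:66839501-66839734: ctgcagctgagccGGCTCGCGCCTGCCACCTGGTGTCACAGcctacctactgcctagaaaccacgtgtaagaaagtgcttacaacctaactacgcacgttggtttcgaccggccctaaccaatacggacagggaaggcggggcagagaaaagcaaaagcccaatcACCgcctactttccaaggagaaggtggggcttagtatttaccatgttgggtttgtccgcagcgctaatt
In the Adamts9 stretch 40 of 268 bases lay in footprints of both replicates. It held the letters GGGGCGGGG, bound by SP and KLF factors, at bases 43 to 51, with their centre in a footprint of replicate 1 only. In the Adamts17 stretch 31 of 234 bases were footprinted in both replicates, and an E-box, CACGTG, at bases 62 to 67 lay in a footprint of neither.

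All 4 inhibitor genes were open. Timp2, which also takes part in the activation of pro-MMP2 by MMP14 (chromosome 11, 118301069 to 118355740, minus strand), had 3.97 and 4.04 (4.01 ± 0.0485, SD, n = 2). Timp3, the inhibitor that stays bound to the matrix (chromosome 10, 86300372 to 86349506, plus strand), had 3.04 and 3.19. Its strongest peak was at the 5′ end in replicate 1 and at a start 2429 bp away in replicate 2, where the 5′ end had 3.06. Timp1 (X chromosome, 20870166 to 20874735) had 2.16 and 2.45 (2.31 ± 0.200). Timp4 (chromosome 6, 115241892 to 115252205) was the weakest at 0.937 and 0.993 (0.965 ± 0.0397), above 10.5% of open genes. The order Timp2, Timp3, Timp1, Timp4 held in each replicate without overlap between genes. Timp1, Timp3 and Timp4 lie inside the synapsin genes Syn1, Syn3 and Syn2.

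Membrane-type MMPs, which sit on the cell surface, were open at 5 of 6 genes. Mmp14, the collagenase that activates pro-MMP2 (chromosome 14, 54431612 to 54445364), had 3.07 and 2.90 (2.98 ± 0.119, SD, n = 2). Mmp17 had 2.33 and 2.08 (2.20 ± 0.174), Mmp15 had 2.02 and 1.54, and Mmp16 had 1.67 and 1.85. Mmp24 had 1.43 and 1.42, but at different starts, and its 5′ end had 0.688 in replicate 2. Mmp25, a membrane-type MMP known from leukocytes, had no promoter peak in either replicate.

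Of the gelatinases, Mmp2 was open in the longer peak lists and Mmp9 was not. In the shorter lists, Mmp2 had a promoter peak in replicate 2 only. Mmp2, an enzyme of stromal cells (chromosome 8, 92827291 to 92853420), had a weak promoter at 0.980 and 1.02, above 11.0% of open genes. Mmp9, an enzyme abundant in neutrophils and macrophages (chromosome 2, 164940780 to 164955850), had no peak within 500 bp of a start in either replicate, though a site touching an exon 12.7 kb into the gene, 0.935 kb from an internal start, had 2.26 and 1.00, and one 1.92 kb upstream had 0.840 and 1.23. The macrophage and neutrophil markers given above were mostly not open in both replicates either, though Cd68, Cd14 and Lyz2 had a peak in replicate 1. The part of these cells in the result was not tested. Of the other MMPs, Mmp23 had 2.06 and 2.42 (2.24 ± 0.259, SD, n = 2), Mmp11, stromelysin-3, had 1.42 and 1.45, and Mmp28, epilysin, had 0.818 and 0.961. The Mmp11 peak also lies at a start of Chchd10, a mitochondrial protein gene, which makes Mmp11 the 1 open member whose promoter peak is shared with another gene, against 18.5% of open genes. Mmp19 had 1.07 in replicate 1 and no peak in replicate 2, and Mmp21 had none.

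Proteoglycan-cleaving ADAMTS genes were open at 5 of 6. Besides Adamts9 these were Adamts15 (1.69 and 2.02), Adamts20 (1.65 and 1.90), Adamts8 (0.721 and 0.547) and Adamts5 (0.571 and 0.492), the main aggrecanase of mouse cartilage. Adamts5 lay above 2.58% of open genes, the lowest of the open members. Adamts4, the other well-known aggrecanase, had 1.20 in replicate 2 and no peak in replicate 1. The Adamts20 peak lay 60.9 kb from its 5′ end, which had no peak in either replicate.

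Adamts2, the main enzyme that removes the N-propeptide of fibrillar procollagen (chromosome 11, 50602084 to 50807573), had 3.56 and 3.63 (3.59 ± 0.0449, SD, n = 2). Its relative Adamts3 had 1.05 and 0.946, and Adamts14, the third of this group, had 0.517 in replicate 1 and no peak in replicate 2. Adamts7 and Adamts12, which cleave cartilage oligomeric matrix protein, had 1.31 and 1.86, and 1.44 and 1.65. Adamts10, linked to fibrillin fibres, had 2.76 and 3.29 (3.02 ± 0.378, SD, n = 2), and Adamts19 had 0.635 and 0.883. Adamts6 and Adamts16 had no promoter peak. Adamts18 had 0.441 in replicate 1 only, and Adamts13, the protease of von Willebrand factor made mainly in the liver, had none.

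ADAMTS-like proteins resemble ADAMTS enzymes but have no protease domain. Adamtsl2 was open at 2.26 and 1.91 (2.09 ± 0.244, SD, n = 2), Adamtsl5 at 2.51 and 1.31, Adamtsl4 at 1.31 and 1.12, and Adamtsl1 at 0.710 and 0.703. Adamtsl3 had 0.406 in replicate 2 and no peak in replicate 1. Internal starts were involved at all but Adamtsl2 of these open genes. The Adamtsl5 peak lay 8052 bp from the 5′ end in replicate 1, where the signal was 1.01 and 1.17, and the strongest Adamtsl4 peaks of the replicates lay at different starts. Among all open members, 21 of 29 had their strongest peak at the 5′ end in both replicates, against 84.7% of open genes, and the other 8 were Mmp11, Mmp23, Mmp24, Adamts20, Adamtsl1, Adamtsl4, Adamtsl5 and Timp3.

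The CpG content of the 5′ end, taken as the observed-to-expected CpG ratio over 500 bp either side, differed between most closed and most open members. Of 20 members with a ratio under 0.4, 5 were open, against 22.5% of such genes in the genome. Of 12 with 0.4 to 0.6, 10 were open, against 73.0%, and of 17 with 0.6 or more, 14 were open, against 93.1%. The 5 open members with a low ratio were Adamts5, Adamts12, Adamtsl2, Timp1 and Timp4. The 3 members with a high ratio that did not open in both replicates were Adamts14, Adamts18 and Adamtsl3, each with a weak peak in 1 replicate.

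**Figure D2:**
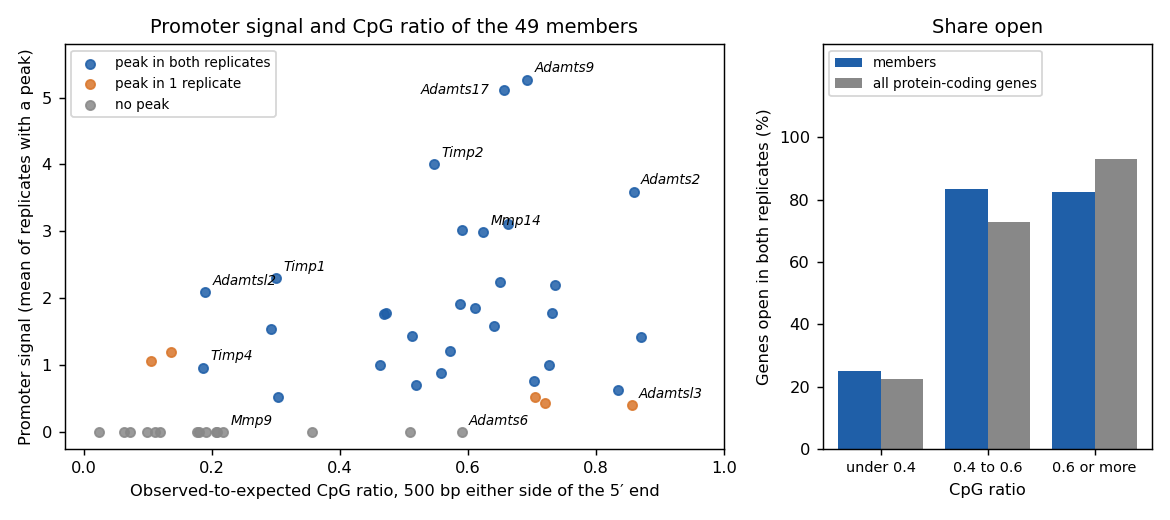
Left, promoter signal of each of the 49 members against the CpG ratio of its 5′ end, coloured by the number of replicates with a peak and with closed genes at 0. Signal and opening are taken at any annotated start. Right, the percent of genes open in both replicates in 3 classes of CpG ratio, for the members and for all protein-coding genes, where the members give 5 of 20, 10 of 12 and 14 of 17.

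The deposited tables of bases with a low false discovery rate come from the same libraries as the peaks and are no separate evidence. None of the 15 genes without a promoter peak held, within 500 bp of a start, a base listed there below 0.05, in either replicate. Of the 5 genes with a peak in 1 library only, Adamts14 held 25 such bases in the library without a peak, and the other 4 held none there. Footprints were present in both replicates in 28 of the 29 open promoters, against 95.1% of open genes, with Adamts8 as the exception. The median number of footprints per promoter peak was 3 in each replicate, against 4 in each over all open genes.

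The chromosome 9 cluster holds Mmp13, Mmp12, Mmp1b, Mmp3, Mmp10, Mmp8, Mmp27, Mmp20 and Mmp7 within 427 kb (7272514 to 7699585). Among them are Mmp1b, Mmp8 and Mmp13 of the collagenase group, and stromelysins 1 and 2. The macrophage elastase, the tooth enzyme enamelysin and matrilysin also lie there. Mmp1a, a collagenase gene planned for the list, was not among the protein-coding genes taken by symbol and was not examined. The cluster contains no other gene annotated as protein-coding in GENCODE M21. None of the 9 had a promoter peak in either replicate, and none had a shared site in its gene body or 10 kb around it. CpG ratios of their 5′ ends ran from 0.0232 to 0.207, and 12.5% of the 5098 genes with a ratio up to that highest value were open. Mmp12 and Mmp1b overlap each other.

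Across the whole cluster there were 7 peaks in replicate 1 and 4 in replicate 2, with 9 and 6 footprints. Of these, 3 regions were shared by both, all between genes and more than 10 kb from any of them. The strongest lay between Mmp27 and Mmp20, 13.4 kb past the end of Mmp27 (chr9:7595321-7595520), and had 3.01 and 2.36 (2.69 ± 0.462, SD, n = 2). Next to it, 21.5 kb past Mmp27, lay one of 2.00 and 0.680, and 12.7 kb before Mmp8 lay one of 0.571 and 0.508. For comparison, 34.5% of 5900 windows of the same length along the genome held 3 shared regions or fewer, as did 9.88% of the 1639 windows with at least 5 gene 5′ ends. The sequence of the strongest one is shown because it was the main open site of the cluster, with capitals as above. It was chosen after its values were seen. It held no match without mismatch to any of the 14 sequences searched, and looser matches were not searched.
Site between Mmp27 and Mmp20, chr9:7595321-7595520: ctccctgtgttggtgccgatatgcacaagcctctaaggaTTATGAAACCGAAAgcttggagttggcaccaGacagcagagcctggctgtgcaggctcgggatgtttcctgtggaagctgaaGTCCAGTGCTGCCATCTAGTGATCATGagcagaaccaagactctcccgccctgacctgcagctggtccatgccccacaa

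**Figure D3:**
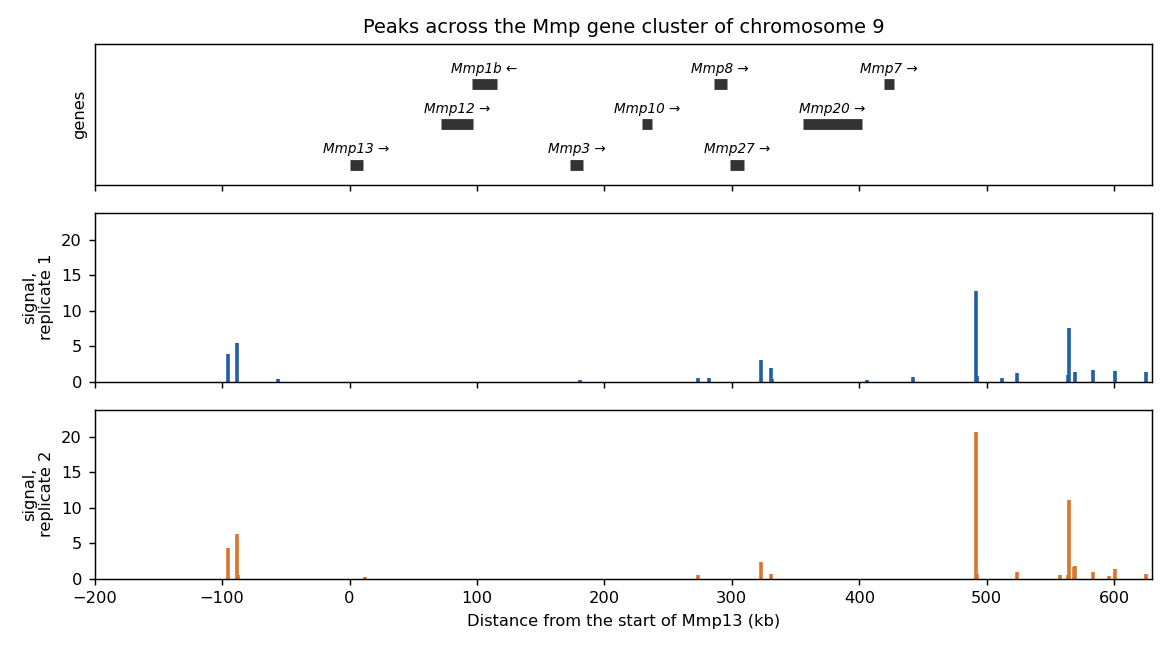
Genes of the chromosome 9 cluster (top, arrows give the strand) and peaks of replicate 1 and replicate 2 (lines, height is the deposited signal) by distance in kb from the start of Mmp13. Inside the cluster the highest line of each replicate, 3.01 and 2.36, stands between Mmp27 and Mmp20, and higher peaks lie outside on both sides.

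Open sites away from starts were counted over each gene body with 10 kb added at both ends, leaving out regions at any protein-coding promoter. The members had 156 such sites shared by both replicates, with 73 more in replicate 1 only and 41 in replicate 2 only. At least 1 shared site was found at 35 of 49 members (71.4%), against 58.5% of all genes, and 13 members had 5 or more, against 9.29% of all genes. The median was 2 sites per member against 1 per gene, and 2.71 against 1.73 per 100 kb of window. Members have longer windows (a median of 46.1 kb against 37.4 kb), and longer windows hold more sites. Beside genes of the same class of window length, 25 members had more sites than the median gene, 10 the same and 14 fewer. The class medians are small, and with a median of 0 in the shortest class no gene there can have fewer. An even split is therefore not the background, and the split over all genes was not counted, so no excess is read from these counts.

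Of the 156 sites, 98 lay in introns of the member, 18 touched an exon, 21 were upstream and 19 downstream. For 129 the nearest protein-coding start belonged to the member. Their median signal was 1.06 in replicate 1 and 0.918 in replicate 2, against 0.947 and 0.821 over all 45484 shared sites outside promoters. Of them 13 (8.33%) were stronger than 90% of all sites by mean rank, against 8.10% of all sites. A site was present at 26 of the 29 open members, against 70.5% of all open genes, and at 9 of the other 20, against 38.6% of genes not open. The remaining 11 members had neither, against 23.2% of all genes.

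**Figure D4:**
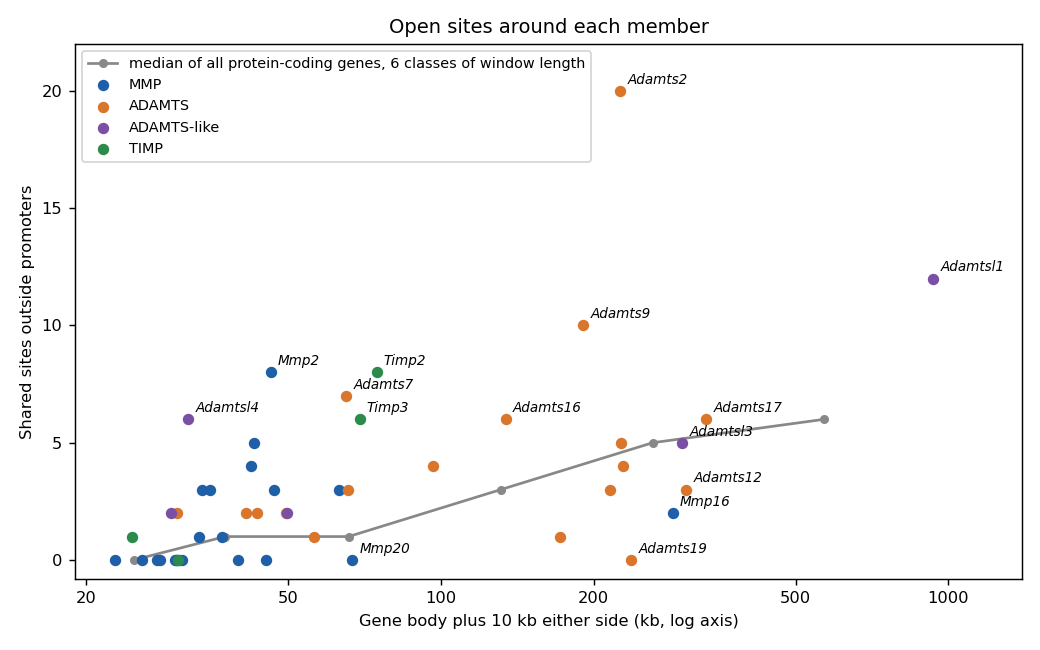
Shared sites outside promoters of each member against the length of its gene body plus 10 kb either side (log axis), coloured by family, with the median over all protein-coding genes in 6 classes of length as a grey line. Adamts2 with 20 sites, Adamts9 with 10, Mmp2 and Timp2 with 8 lie above the line, and Mmp16, Adamts12 and Adamts19 lie below it.

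Adamts2 had the most sites. Its window of 225 kb held 20, or 8.87 per 100 kb, denser than 93.6% of genes. They were spread along the gene, and the strongest, in an intron 67.6 kb from the 5′ end (chr11:50669581-50669800), had 4.96 and 7.70 (6.33 ± 1.93, SD, n = 2), more than the Adamts2 promoter in each replicate. Another intronic site at 168 kb had 4.55 and 2.95. Adamtsl1, with the longest window (934 kb), had 12 sites, or 1.28 per 100 kb, and no site of it passed 1.19 in either replicate.

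Adamts9 had 10 sites, 9 of them in introns and 1 touching an exon, and the 3 strongest of them were in introns. The site 2.08 kb into the gene (chr6:92941281-92941540) had 4.80 and 5.27. The one at 93.1 kb had 4.32 and 6.50, and the one at 156 kb had 5.04 and 2.95, so the site at 156 kb was the highest of the 3 in replicate 1 and the lowest in replicate 2. Mmp2 had 8 sites in a short window of 46.1 kb, or 17.3 per 100 kb, denser than 99.3% of genes. Its strongest site, 8.91 kb upstream (chr8:92818281-92818480), had 4.55 and 2.81 (3.68 ± 1.24, SD, n = 2), above the Mmp2 promoter at 0.980 and 1.02 in both replicates. A second one near the 3′ end of the gene had 2.37 and 2.98, with a start of Lpcat2 4.95 kb away.

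Inhibitor genes differed from each other in their sites. Timp2 had 8, and the strongest, 27.9 kb into the gene (chr11:118327661-118327920), had 3.83 and 4.09, close to the promoter's 3.97 and 4.04. Its nearest start is that of Cep295nl, which overlaps Timp2, and the data do not assign the site to either gene. Timp3 had 6, and an intronic site at 39.4 kb (chr10:86339681-86339940) had 4.98 and 6.03 (5.51 ± 0.737, SD, n = 2), higher than the Timp3 promoter in both replicates. It also lies inside Syn3. Timp1 had 1 upstream site, inside Syn1, of 0.635 and 0.797, and Timp4 had none.

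**Figure D5:**
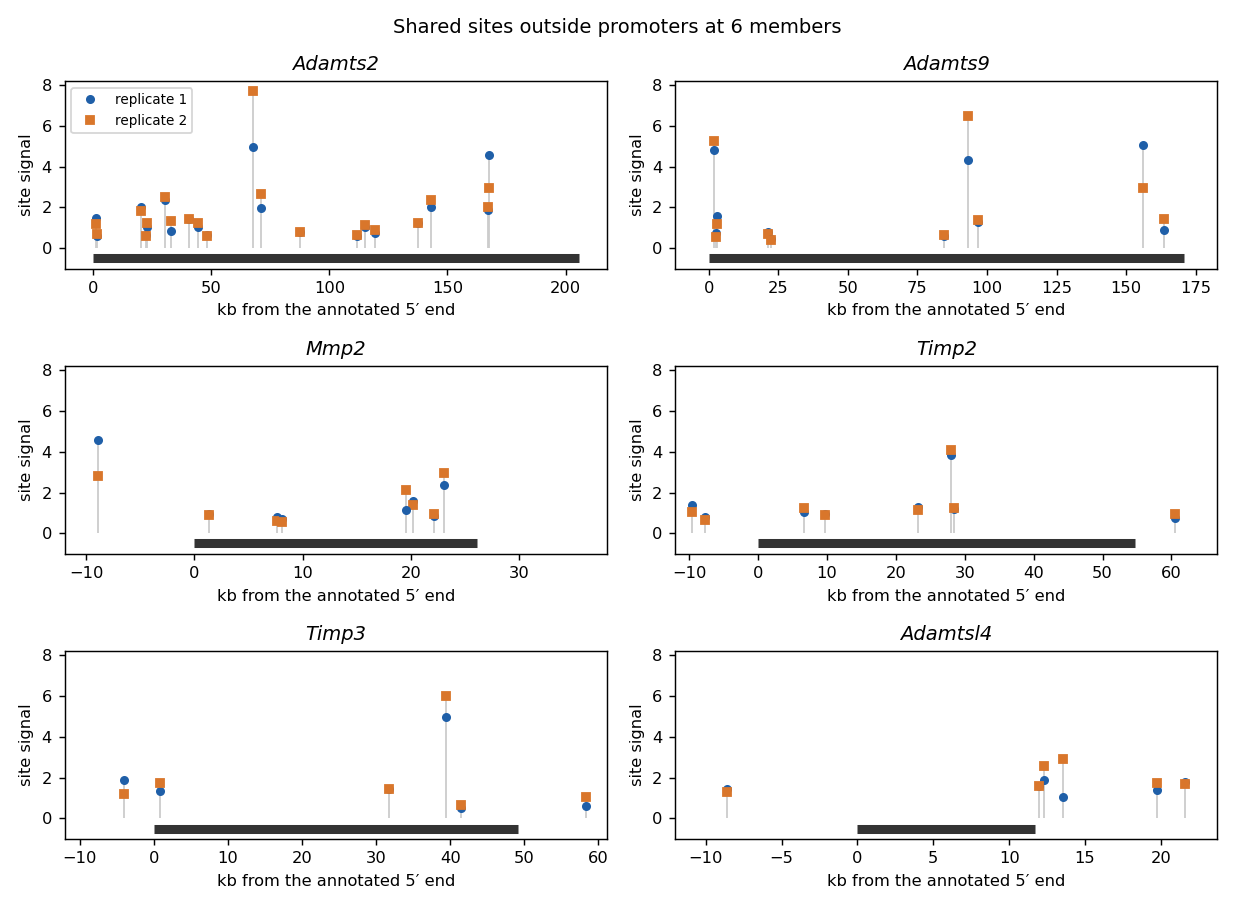
Shared sites outside promoters at 6 members, by distance in kb from the annotated 5′ end, with the deposited signal in replicate 1 (circles) and replicate 2 (squares) and the gene body as a dark bar. Adamts2 and Adamts9 show sites along the gene, Mmp2 its highest replicate 1 site 8.91 kb upstream, Timp3 a single high site at 39.4 kb, and Adamtsl4 most of its sites past the 3′ end.

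The strongest site of all lay 25.5 kb from the 5′ end of Adamts15, past its 3′ end (chr9:30896841-30897060), with 6.16 and 6.96 (6.56 ± 0.570, SD, n = 2), above 99.0% of all sites outside promoters. The Adamts15 promoter had 1.69 and 2.02. Adamts6 was closed by the promoter rule but not closed nearby: a site centred 0.774 kb upstream of its 5′ end (chr13:104286941-104287180) had 4.17 and 5.01, and one 0.816 kb downstream had 2.54 and 2.02. With 2000 bp either side of a start, Adamts6, Adamts16 and Mmp9 counted as open. A site 12.5 kb from the 5′ end of Adamts4, past its 3′ end, had 2.96 and 2.52, and its nearest start is that of B4galt3. Adamtsl4 had 6 sites in 31.7 kb, denser than 99.5% of genes, 5 of them past its 3′ end.

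A number of members with long windows had few sites. Mmp16 (286 kb) had 2, Adamts12 (304 kb) had 3, Adamts18 (172 kb) had 1, and Adamts19 (237 kb) had none that both replicates shared. Each of the membrane-type, proteoglycan-cleaving, procollagen and ADAMTS-like genes had at least 1 site, as did Mmp9 (3), Adamts13 (1), Adamts6 (4) and Adamts16 (6), which had no promoter peak. Of the MMPs that are neither gelatinases nor membrane-type, Mmp28 (4) and Mmp11 (1) had sites.

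Footprints were listed in both replicates at 123 of the 156 sites (78.8%), against 75.4% of all sites. A window of 300 bp centred on each site was searched on both strands for 14 consensus sequences without mismatch. These were NRF1, CTCF and the palindrome of steroid receptors, by name alone, and 11 shorter ones. The AP-1 sequence, for Fos and Jun dimers, was TGANTCA. For NR5A, the family of the steroidogenic regulator SF-1, it was CAAGGTCA. GATA factors were searched as AGATAA, RUNX factors by the letters TGTGGTT, and ETS factors through the core CCGGAAG. SP/KLF was GGGGCGGGG as above, the cAMP response element (CRE) was TGACGTCA, and C/EBP was TTGCGCAA. For TEAD, the factors of the Hippo pathway, the sequence was GGAATG, for the E-box it was CACGTG as above, and for forkhead (FOX) factors it was TGTTTAC. The share of windows with a match differed by sequence, without a test. AP-1 was found in 20 windows (12.8%, against 16.0% of all sites), GATA in 23 (14.7% against 18.2%), TEAD in 35 (22.4% against 18.6%), NR5A in 11 (7.05% against 7.53%) and E-box in 15 (9.62% against 5.72%). The steroid receptor palindrome was found in 4 (2.56% against 1.35%), CTCF in 3 (1.92% against 3.35%) and ETS in 2 (1.28% against 2.53%). A match with its centre in a footprint of both replicates was rare, with 3 CTCF sites (1.92% against 2.41%) and 2 each for AP-1 (1.28% against 0.576%), NR5A (1.28% against 1.17%) and TEAD (1.28% against 0.532%). There was 1 each (0.641%) for RUNX (against 0.297%), SP/KLF (against 0.715%) and E-box (against 0.545%). In the 29 open promoters, SP/KLF was footprinted in both replicates at Mmp11 and Mmp14 (6.90%), against 15.7% of open promoters, and CTCF at Adamtsl4 and Adamtsl5 (6.90%), against 0.679%. Each of these shares rests on 2 genes. The strongest Adamtsl5 peak lay 8052 and 8090 bp from the 5′ end in replicates 1 and 2. That of Adamtsl4 lay 10897 bp from the 5′ end in replicate 1 and at it in replicate 2.

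All printed sequence is the C57BL/6 reference, and CAST alleles may differ from it. The matches name places in the sequence and show no bound factor. The strongest sites that hold a match footprinted in both replicates are printed on the plus strand, with capitals for bases inside footprints of both.
Adamts6, 0.774 kb upstream, chr13:104286941-104287180: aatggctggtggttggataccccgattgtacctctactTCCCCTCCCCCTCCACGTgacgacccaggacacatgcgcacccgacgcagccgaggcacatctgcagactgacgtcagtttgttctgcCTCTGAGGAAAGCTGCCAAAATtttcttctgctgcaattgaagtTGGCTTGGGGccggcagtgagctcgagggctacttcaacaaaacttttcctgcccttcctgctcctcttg
Adamts9 intron, chr6:92787441-92787600: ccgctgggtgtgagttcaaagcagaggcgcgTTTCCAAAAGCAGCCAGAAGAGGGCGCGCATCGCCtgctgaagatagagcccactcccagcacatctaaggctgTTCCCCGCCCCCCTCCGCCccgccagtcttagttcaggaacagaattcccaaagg
Adamts2 intron, chr11:50769561-50769740: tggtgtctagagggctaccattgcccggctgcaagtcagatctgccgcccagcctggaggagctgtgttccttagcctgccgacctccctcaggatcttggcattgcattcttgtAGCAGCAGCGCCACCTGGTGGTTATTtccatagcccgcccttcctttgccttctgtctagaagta
Adamts15 intron, chr9:30903361-30903600: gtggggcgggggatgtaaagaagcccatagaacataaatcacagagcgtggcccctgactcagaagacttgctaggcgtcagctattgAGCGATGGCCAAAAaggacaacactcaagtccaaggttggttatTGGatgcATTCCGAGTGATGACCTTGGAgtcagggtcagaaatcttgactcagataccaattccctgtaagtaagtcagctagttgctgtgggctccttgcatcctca
The Adamts6 site carries an E-box at bases 52 to 57, and a CRE match at bases 108 to 115 that lies in no footprint. The Adamts9 site carries an SP/KLF match at bases 108 to 116 on the minus strand. The Adamts2 site carries a CTCF match at bases 125 to 136. The Adamts15 site, with 2.26 and 2.38, carries an NR5A match at bases 151 to 158 and a TEAD match at bases 139 to 144, both on the minus strand and not overlapping. Its AP-1 matches at bases 56 to 62 and 178 to 184 and its SP/KLF match at bases 3 to 11 lay in no footprint. The 2 footprinted AP-1 matches were upstream of Adamtsl5 (3.10 and 1.31) and in Mmp2 (0.861 and 0.930).

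Genes that activate, inhibit or accompany these enzymes were mostly open. Of 31 such genes 27 were open, beside the 62.3% of all genes. All 7 inhibitor and clearance genes were, with Lrp1, the endocytic receptor that takes up several of these proteases, at 4.83 and 6.33, and Reck, a membrane inhibitor of MMPs, at 2.83 and 2.10. The weakest of them were A2m at 0.323 and 0.383, above 0.347% of open genes, and Thbs2 at 0.710 and 0.774, above 6.36%. Of 7 activators 5 were, with Plat at 4.36 and 4.26, Furin, a convertase of MMP precursors, at 3.67 and 3.85, and Plau at 2.47 and 2.26. Pcsk6 was the weakest open activator at 0.818 and 0.735. Plaur had 0.937 in replicate 1 only, and Plg, the liver-made plasminogen, had no promoter peak. All 8 matrix and surface partners were open, and Adam10 (10.7 and 15.8), Adam17 (7.43 and 8.95) and Bsg (9.49 and 14.9), which are used in many tissues, exceeded every member in both replicates. The weakest partners were Papln (0.495 and 0.758, above 4.45% of open genes) and Tll1 (0.614 and 0.547, above 3.33%). Of 9 ADAMTS substrates 7 were, with Vcan, the versican gene, at 2.66 and 1.63 and Fbn1 at 1.42 and 1.12, while Acan and Bcan had a peak in 1 replicate each.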

How the data were processed

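DNase-seq of ovary tissue was taken from 2 libraries of 1 group. Per the text files deposited with the samples, the lists are on mm10 and derive from each library's own alignments without pooling; aligner, callers, versions and the handling of CAST alleles: not given in the sources used here. Peak strength, as deposited, is a signal. Its values were whole multiples (100% within 0.05 of a step) of 1 step per library, as counts divided by a factor for each library would be, and it was read as scaled for depth; no source used here describes the scaling. The deposited false discovery rates (p-value scale) are listed below 0.05 only, and every footprint, as deposited, has the same p-value label, 0.01, whose meaning is not explained.

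The longer lists (95898 and 83982 peaks) were the main lists, the shorter ones (60823 and 50503) an alternative. Genes were from GENCODE M21, counted by gene identifier, and sequence from assembly GRCm38.p6, of the same build. Regions were peaks of both lists merged where they shared at least 1 bp. Computations used Python 3.11.15, NumPy 2.4.6 and Matplotlib 3.10.9. Assignment of peaks and sequence matches was checked on simulated data.

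The members and lists were chosen with earlier results of these data known, so no list was tested and no p-value is given; counts stand beside those over all genes. Named were the 12 members with the strongest promoters, all Timp genes, members open in 1 replicate, the chromosome 9 cluster, the 5 members with most sites and the 12 strongest sites. Other members and sites were named to account for every gene or after their values were seen. The Timp2 promoter peak lies in an exon and its sequence is not shown.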

Additional observations from a re-analysis of the deposited data

How the results depend on the processing

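With 1 group, alternatives changed counts and no test. No paired analysis was possible because the series has a single group of 2 libraries. The 156 shared sites became 90 with the shorter peak lists and 243 with a flank of 50 kb. Among the strongest 20000 peaks of each replicate, 11 members were open (against 46.1% of all genes), 21 sites were left, and 10 of 49 members had a site (against 16.7% of all genes). The 11 open members were Mmp14, Mmp17, Mmp23, Adamts9, Adamts2, Adamts10, Adamts17, Adamtsl2, Timp1, Timp2 and Timp3. Of the counts that were recomputed (open members, sites, members with a site, and open promoters with footprints), the others stayed within 1.5 times under the shorter lists, promoters of 2000 bp, the 5′ end alone and each replicate alone. Footprints were not recounted under a reciprocal overlap of 50%, no flank, a flank of 50 kb or the strongest 20000 peaks, and the counts by family, CpG class and sequence match were not recomputed. With the 5′ end alone, Mmp11 and Adamts20 were no longer open. The share of sites with a footprinted AP-1 match, 1.28% with both replicates, was 1.72% to 1.98% with each replicate alone and 12.8% when matches outside footprints counted; it rests on 2 sites. With promoters of 2000 bp, the promoter signals of the 12 strongest members and Timp4 moved by no more than the SD between replicates. In the shorter lists, Mmp2, Mmp11, Mmp28, Adamts5, Adamts8 and Adamtsl5 were no longer open in both replicates. Depth limits weak sites: the absolute depth is unknown, so a gene without a peak is one whose opening was not detected here.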
